A study of Homo sapiens with 9 samples.

Results

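The comparison concerns transcript levels in THP-1 cells after 48 h with lupeol at 50 µmol/L, set against cells given the solvent alone. The 6 libraries were taken by their labels, 3 with lupeol at 50 µmol/L (lupeol 50, replicates 1, 2 and 3) and 3 of solvent control (controls 1, A and B), out of 9 libraries in the series. The other 3 libraries hold a higher dose, lupeol at 80 µmol/L. THP-1 is a human suspension line from an acute monocytic leukaemia, bought commercially, so all 6 libraries come from a single line. In 1 library the treatment label writes the unit without micro, and its sample description gave the dose. Of 67928 genes in the deposited table, 17568 had enough counts to be tested, and each library held between 26134744 and 29418948 counts. Whether replicate libraries stem from separate cultures is not stated in the labels. The p-values then measure only the spread among the 9 libraries, fitted together, which may be technical.

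Lupeol is a plant triterpene, a rigid lipid with a ring system made from squalene, as cholesterol is. Cells sense sterols in the membrane of the endoplasmic reticulum (ER): when sterols are scarce, SREBP2 is cut free and switches on cholesterol synthesis and uptake, and when they are plentiful it stays bound. The same membrane holds the sensors of the unfolded protein response, PERK, IRE1 and ATF6, which raise chaperones, protein export and, through the factor ATF4, amino acid supply. THP-1 cells are much used as a model of monocytes, and they express granule proteases, MHC genes and inflammatory cytokines.

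The libraries did not fall cleanly by label. Control B and lupeol 50 replicate 1 stood closer to each other than to the rest of their own groups. The chi-square per degree of freedom of their counts was 7.73, while that of control B was 20.33 with control 1 and 24.97 with control A. For lupeol 50 replicate 1 it was 29.97 with replicate 2 and 18.04 with replicate 3. Lupeol 50 replicates 2 and 3 differed by 6.12, and controls 1 and A by 5.12. On the first principal component of the 6 libraries, with 34.9% of the variance of 1000 variable genes, the lupeol 50 libraries stood at -0.885, 27.6 and 21.3 and the controls at -25.2, -20.6 and -2.19. On the second component, with 20.5%, the lupeol 50 libraries stood at -30.5, 10.3 and 6.34 and the controls at 8.23, 12.3 and -6.66. There lupeol 50 replicate 1 lay apart from control B as well. Whether the labels of control B and lupeol 50 replicate 1 were exchanged was not tested, and each direction below holds for the libraries as labelled. Without control B, 4080 of 18223 tested genes were wholly higher and 3709 wholly lower, 7789 together. Without lupeol 50 replicate 1 it was 3875 and 3829 of 18228, 7704 together. Fewer libraries separate more easily by construction, but the count rose less when another compared library was left out. It was 4503 without control 1, 4529 without control A, 4710 without replicate 2 and 4556 without replicate 3. The counts and medians of the main gene lists without control B or lupeol 50 replicate 1 are to be read beside the counts of all genes in those settings. They are an alternative added after seeing the data. Control B and lupeol 50 replicate 1 were singled out by their closeness to the other group, so leaving either out widens the difference by construction. The list values in those settings are therefore a description and add no support. The part that either library plays in a result beyond those values was not tested.

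The monocytic identity of the line was visible in both groups: 9 of 10 monocytic markers reached 1 CPM, a count scaled to library size, and the exception was CD68. Their summed level was 1129.7 to 1207 CPM at lupeol 50 and 1257 to 1374 CPM in the controls. Markers of T cells, erythroid cells and epithelium did not reach 1 CPM in any library, with 0 of 6, 0 of 5 and 0 of 5 markers. The defining genes CD3E, HBB and EPCAM had no count in the 6 libraries. Of the B cell markers 3 of 5 reached 1 CPM, and of the fibroblast markers 1 of 5, PDGFRB. The B cell markers summed to 41.8 to 60.1 CPM at lupeol 50 and 44.8 to 53.5 CPM in the controls, nearly all of it PAX5, while MS4A1 had no count. The fibroblast markers summed to 1.83 to 2.89 CPM at lupeol 50 and 1.52 to 2.26 CPM in the controls. In bulk libraries fewer cells of a type and less RNA per cell cannot be told apart, for these markers and for each gene below.

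Across all genes, lupeol 50 libraries showed many small differences from control and none that passed the test. edgeR called 0 of 17568 genes (0.00%) at an adjusted p under 0.05, and the smallest adjusted p was 0.19. At an unadjusted p under 0.05 it placed 2183 genes (12.4%), 1125 of them higher (6.40%) and 1058 lower (6.02%). DESeq2 called 229 genes and limma-voom called 0. Without lupeol 50 replicate 1 the edgeR count was 427, without control B it was 141, and without lupeol 80 replicate 1, which shares the fit, it was 2. These calls are a description of fewer libraries, and 74 genes were shared between the first 2 settings, 17.3% of the 427 and 52.5% of the 141. Words such as higher and lower in what follows describe where the libraries lay, not a passed test.

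The separation of the groups library by library gave a fuller view. All 3 lupeol 50 libraries lay above all 3 controls (wholly higher) for 1677 genes (9.55%) and below them (wholly lower) for 1692 genes (9.63%), 19.2% together. Most of these differences were small: 137 of the higher and 288 of the lower genes differed at least 2-fold. Above a mean level of 5 CPM, 1344 lay wholly higher and 1018 wholly lower, but only 8 and 21 of them differed at least 2-fold. That split depends on the scaling: refitted and scaled on their own, genes of at least 5 CPM were wholly higher in 1172 cases and wholly lower in 1157. With no scaling factors, 1522 of all genes tested were wholly higher and 1833 wholly lower. The middle of the distribution ran from -0.78 (5th percentile) to 0.64 (95th percentile) on the log2 fold change scale, lupeol 50 minus control, with a median of 0.00. In the 3369 separated genes, lupeol 50 replicate 1 was the lupeol library nearest the controls in 59.8%, and control B was the control nearest the lupeol libraries in 57.3%.

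**Figure D1:**
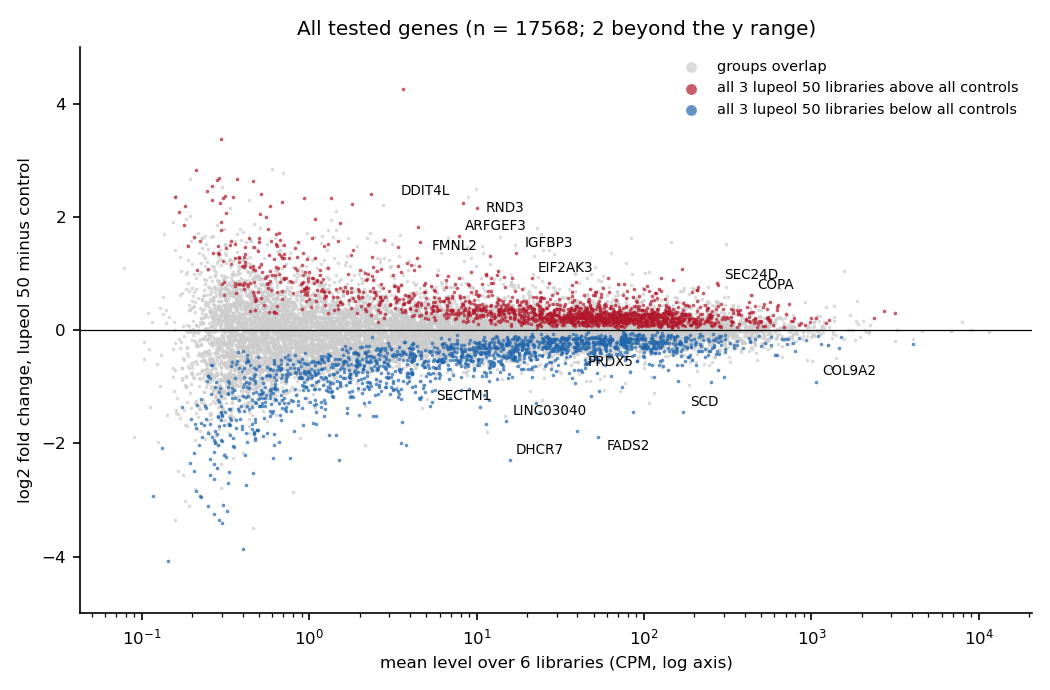
Log2 fold change of lupeol 50 minus control (y axis) against the mean level over the 6 libraries in CPM (x axis, log scale), 1 point per tested gene. Red points are the 1677 genes whose 3 lupeol 50 libraries all lay above the controls and blue points the 1692 genes whose libraries all lay below; among well-expressed genes the blue points of the sterol and fatty acid genes DHCR7 and FADS2 reach lowest.

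Gene classes were unevenly placed, which is given here as a description with no test. Protein-coding genes (13413) had a median log2 fold change of 0.02, with 11.3% wholly higher and 9.15% wholly lower. Noncoding genes (2608) had a median of -0.14, with 3.41% wholly higher and 11.6% wholly lower, and pseudogenes (1052) a median of -0.09, with 4.94% and 10.2%. Below 5 CPM, noncoding genes stood at a median of -0.15 and protein-coding genes at -0.06. The base composition of transcripts moved with the fold change too. With genes split into 5 equal groups by GC content, in the lowest the median was 0.07, with 11.1% wholly higher and 6.58% wholly lower, and in the highest it was -0.11, with 6.46% and 13.6%. Spearman's correlation between fold change and GC content was -0.22 over 17173 genes, which share the same 6 libraries and are not replicates. For single libraries, each set against the mean of the controls, it did not follow the groups. It was -0.05, -0.25 and -0.20 in lupeol 50 replicates 1, 2 and 3, and 0.11, 0.16 and -0.20 in controls 1, A and B. Whether GC content has a part in any result was not tested beyond removing its trend, after which edgeR still called 0 genes.

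**Figure D2:**
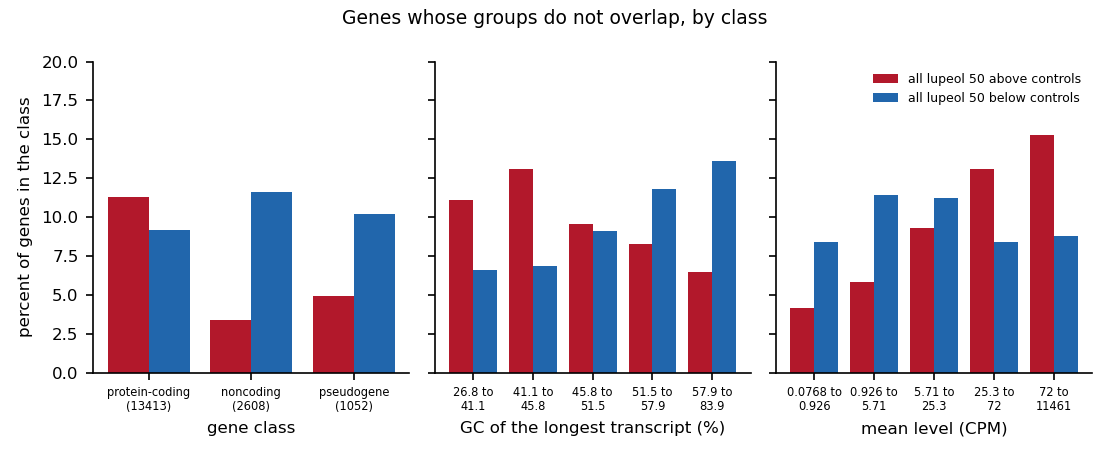
Percent of genes (y axis) wholly higher (red) and wholly lower (blue) at lupeol 50, by gene class, and in 5 equal groups by GC content of the longest transcript and by mean level (x axes). Noncoding genes and the group of highest GC content have more wholly lower than wholly higher genes (3.41% higher against 11.6% lower, and 6.46% higher against 13.6% lower), while in the group of highest level 15.3% are wholly higher and 8.76% wholly lower.

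The gene with the smallest p on the higher side was COPA. It encodes the alpha subunit of the COPI coat that returns vesicles from the Golgi to the ER, and lies on chromosome 1 (160288594 to 160343273 in the deposited table, whose coordinates match GRCh38). Libraries are given in the order of replicates 1, 2 and 3 and controls 1, A and B, in CPM scaled by the TMM method, and fold changes are log2 values with their SE. COPA had 418, 612 and 553 CPM at lupeol 50, against 330.5, 343 and 356 CPM in the controls, a log2 fold change of 0.62 ± 0.13. Ranks 7 to 10 of the higher side held 4 further genes of the ER and its export route. SEC24D, a cargo adaptor of the COPII coat that carries proteins out of the ER, had 253, 424 and 375 CPM at lupeol 50, against 185, 176 and 244 CPM in the controls, at 0.79 ± 0.17. In both genes replicates 2 and 3 stood far above every control, and in SEC24D replicate 1 lay just above control B. EIF2AK3, which encodes the ER stress sensor PERK, had 20.9, 32.6 and 30 CPM at lupeol 50, against 11.3, 13.3 and 19.7 CPM in the controls, at 0.92 ± 0.21. DNAJC3, an ER co-chaperone that also restrains PERK, had 103, 174 and 147 CPM at lupeol 50, against 81.9, 90.9 and 97.8 CPM in the controls, at 0.65 ± 0.15. Here too the groups did not overlap, and replicate 1 was the lowest lupeol library. DPAGT1 makes the first lipid-linked sugar of N-glycosylation and had 63.2, 87.3 and 78.2 CPM at lupeol 50, against 44.6, 41.3 and 57.7 CPM in the controls, at 0.67 ± 0.15. Since 17.4% of its exonic bases are shared with C2CD2L, its value is uncertain.

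Between COPA and these 4 in order of p stood genes of surface, lipid and transcription proteins. DKK2, a secreted modulator of Wnt receptors, had 6.94, 10.4 and 9.16 CPM at lupeol 50, against 4.14, 4.45 and 5.16 CPM in the controls, at 0.95 ± 0.21. TLR6, which recognises bacterial lipopeptides together with TLR2, had 11.4, 15.5 and 14.2 CPM at lupeol 50, against 7.19, 7.65 and 8.41 CPM in the controls, at 0.82 ± 0.18. TNFRSF21, the death receptor DR6, had 34, 57.8 and 48.5 CPM at lupeol 50, against 24.8, 26.8 and 29.2 CPM in the controls, at 0.79 ± 0.18. All 3 genes were separated, with controls packed closely and replicate 1 the lowest of the lupeol libraries. PLPP5, a lipid phosphatase, had 38.8, 59.3 and 52.5 CPM at lupeol 50, against 23.4, 27.8 and 32.6 CPM in the controls, at 0.85 ± 0.18. KLF10, a zinc finger factor induced by TGF-beta, had 50.6, 76.2 and 74 CPM at lupeol 50, against 44.4, 40 and 44.3 CPM in the controls, at 0.64 ± 0.14. Each of these 10 genes had an edgeR adjusted p = 0.19. Their lupeol 80 mean lay between the control and lupeol 50 means in 10 of 10 genes, which were chosen on their lupeol 50 values.

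On the lower side the genes of smallest p were more mixed. COL9A2, a chain of the fibril-associated collagen IX that THP-1 cells held at a high level, lies on chromosome 1 (40300489 to 40317813) and had 967, 598 and 639.9 CPM at lupeol 50, against 1491, 1539 and 1125 CPM in the controls, at -0.91 ± 0.17. TMEM105 had 11.3, 7.99 and 8.9 CPM at lupeol 50, against 17, 17.4 and 16.8 CPM in the controls, at -0.86 ± 0.16. PRDX5, a peroxiredoxin that removes peroxides in mitochondria and peroxisomes, had 38.5, 29.3 and 27.4 CPM at lupeol 50, against 52.4, 57.3 and 49.7 CPM in the controls, at -0.74 ± 0.15. The 3 lupeol libraries of each gene lay below every control, and control B was the lowest control in each. DBI, the acyl-CoA binding protein, had 95.4, 79.2 and 80.7 CPM at lupeol 50, against 146, 137 and 105 CPM in the controls, at -0.60 ± 0.13. TSC22D3, the glucocorticoid-induced leucine zipper GILZ, had 30.6, 24.3 and 32.5 CPM at lupeol 50, against 59.1, 45.4 and 37.6 CPM in the controls, at -0.70 ± 0.16. SECTM1, an interferon-responsive protein that binds CD7, had 3.95, 2.9 and 2.04 CPM at lupeol 50, against 8.55, 9.38 and 4.63 CPM in the controls, at -1.34 ± 0.28. The controls of SECTM1 lay far apart, with B just above the highest lupeol library. ACCS stood at -0.60 ± 0.13, PBXIP1 at -0.76 ± 0.17, and SEMA4B, a semaphorin, at -0.69 ± 0.16. NAA80, the N-terminal acetyltransferase of actin, stood at -0.69 ± 0.15, and shares 10.6% of its exonic bases with HYAL3, so its value is uncertain. All 10 had an edgeR adjusted p = 0.19, and their lupeol 80 mean lay between control and lupeol 50 in 6, below both in 3 and above both in 1.

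**Figure D3:**
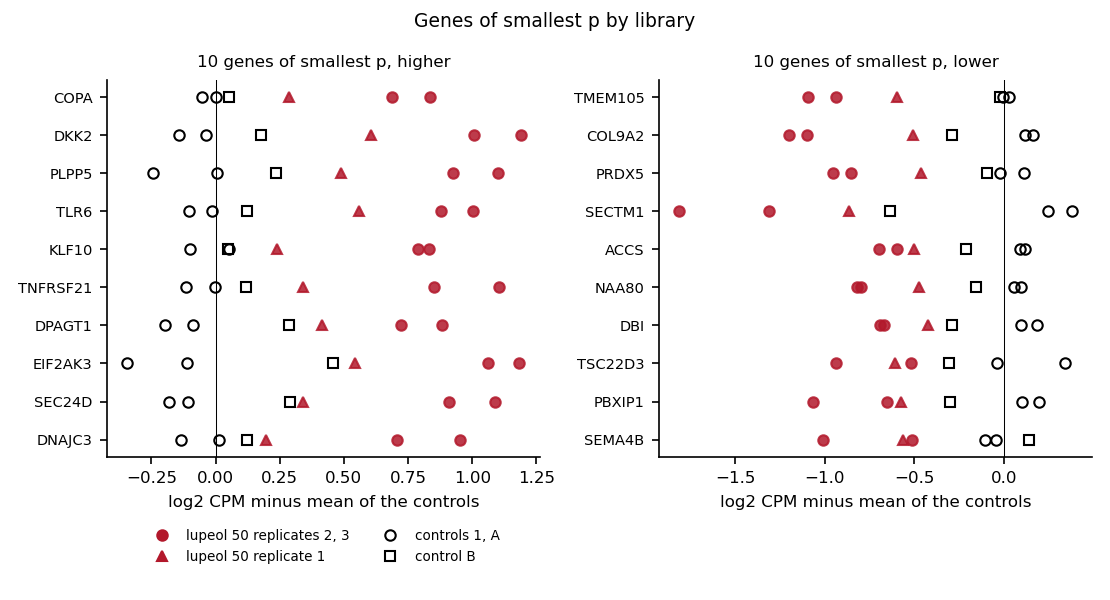
Log2 CPM in each library minus the mean of the 3 controls (x axis) for the 10 higher and 10 lower genes of smallest p (rows). Red symbols are lupeol 50 (triangle, replicate 1) and open symbols controls (square, control B); the groups do not overlap in any row by the rule that chose the genes, and replicate 1 and control B often face each other across the gap.

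The largest fold changes among separated genes above that level lay in other genes. DDIT4L, an inhibitor of mTORC1 signalling related to DDIT4, had 3.75, 22.1 and 15.2 CPM at lupeol 50, against 2.05, 3.65 and 2.92 CPM in the controls, at 2.24 ± 0.58. RND3, an atypical small GTPase that loosens actin, had 4.57, 28.1 and 16.8 CPM at lupeol 50, against 3.73, 2.83 and 4.48 CPM in the controls, at 2.16 ± 0.64. In both, replicates 2 and 3 carried the difference, and replicate 1 lay just above the highest control. ARFGEF3 had 5.84, 14.9 and 14.9 CPM at lupeol 50, against 3.19, 3.69 and 4.37 CPM in the controls, at 1.66 ± 0.38. IGFBP3, which binds insulin-like growth factors, had 14.2, 30.5 and 29.9 CPM at lupeol 50, against 7.6, 8.41 and 13 CPM in the controls, at 1.36 ± 0.53, and FMNL2, a formin, stood at 1.31 ± 0.29. The lower side was led by lipid genes, with DHCR7, FADS2 and SCD given with their pathways below. LINC03040, a gene annotated as protein-coding in GENCODE 29, had 10.6, 6.95 and 4.89 CPM at lupeol 50, against 21.4, 22.7 and 23.7 CPM in the controls, at -1.60 ± 0.40. Its controls lay within a narrow range, and all lupeol 50 libraries were under it.

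Cholesterol genes stood lower at lupeol 50 almost without exception. Of 26 listed genes 25 were tested, 24 lay below control and 17 were wholly lower, with a median log2 fold change of -0.72, beside 50.5% of all genes below control and 9.63% wholly lower. Without control B 23 were wholly lower and the median was -0.89, and without lupeol 50 replicate 1 these were 21 and -0.71. DHCR7, the last enzyme of cholesterol synthesis, lies on chromosome 11 (71428193 to 71452868) and had 7.46, 4.54 and 4.04 CPM at lupeol 50, against 32.5, 30.8 and 15 CPM in the controls, at -2.29 ± 0.75 (edgeR, adjusted p = 0.33). SREBF2, which encodes the controlling factor SREBP2, had 219.6, 149 and 150.1 CPM at lupeol 50, against 367, 353 and 260.1 CPM in the controls, at -0.92 ± 0.29. In both genes replicates 2 and 3 were lowest, replicate 1 came next and control B lay between them and the other controls. FDPS, farnesyl diphosphate synthase, had the smallest p of the list, with 75.8, 58.6 and 55.6 CPM at lupeol 50, against 94.1, 97.9 and 81.8 CPM in the controls, at -0.53 ± 0.13 (edgeR, adjusted p = 0.19). Since 18.6% of its exonic bases are shared with RUSC1-AS1, its value is uncertain. The 1 member above control was SCAP, the escort protein of SREBP2, with 123, 127 and 125 CPM at lupeol 50, against 107, 109.7 and 111 CPM in the controls, at 0.20 ± 0.11, chosen after its values were seen, and it was wholly higher.

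The promoter of SREBF2 is shown because it held a sterol response element, TCACNCCAC, read on both strands, by which SREBP2 acts on its targets. It is the RefSeq sequence of GRCh38.p14 around the gene's start, chr22:41832855-41833154, plus strand, with the match in capitals.
SREBF2: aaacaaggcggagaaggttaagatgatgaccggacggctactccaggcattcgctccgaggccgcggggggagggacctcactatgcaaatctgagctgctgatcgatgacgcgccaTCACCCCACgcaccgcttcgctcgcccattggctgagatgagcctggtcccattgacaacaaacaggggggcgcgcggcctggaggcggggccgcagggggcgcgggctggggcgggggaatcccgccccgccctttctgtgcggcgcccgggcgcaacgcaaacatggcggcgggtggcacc
These letters were found in 1 of the 19 promoters of the cholesterol list that were in the table (5.26%) and in 138 of 11790 promoters of tested genes (1.17%). A match is a description of letters in this window, not a site of binding.

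Fatty acid and sterol export genes lay lower as well. Of 13 tested genes of fatty acid synthesis and desaturation (14 listed) 11 lay below control and 5 were wholly lower, with a median of -0.26, beside the same 50.5% and 9.63% of all genes. Without control B 10 were wholly lower with a median of -0.35, and without lupeol 50 replicate 1 there were 7, with -0.29. FADS2, which makes polyunsaturated fatty acids, had 35.6, 14.8 and 17 CPM at lupeol 50, against 110.5, 87.6 and 51.9 CPM in the controls, at -1.89 ± 0.71. SCD, the stearoyl-CoA desaturase, had 117, 76.7 and 83.4 CPM at lupeol 50, against 321, 293 and 140.4 CPM in the controls, at -1.44 ± 0.58. SREBF1, whose product SREBP1 drives these genes, had 39.4, 33.2 and 30.4 CPM at lupeol 50, against 87.8, 82.9 and 47.2 CPM in the controls, at -1.08 ± 0.34. The 3 genes were separated, and control B again was the lowest control. FASN, the fatty acid synthase itself, overlapped, with 627, 627 and 651 CPM at lupeol 50, against 809, 759 and 572 CPM in the controls, at -0.17 ± 0.15. Genes that LXR switches on when sterols accumulate, listed with the LXR receptors NR1H3 and NR1H2, also lay low. Of 10 tested (11 listed) 9 were below control, both receptors among them, and 5 wholly lower, with a median of -0.48. Of the 5, LPCAT3 and PLTP are uncertain, with 66.0% and 12.9% of their exonic bases shared with EMG1 and CTSA. Without control B 6 were wholly lower with a median of -0.55, and without lupeol 50 replicate 1 there were 5, with -0.56. MYLIP, a ubiquitin ligase that LXR induces, had 9.69, 8.37 and 6.71 CPM at lupeol 50, against 16.4, 14.4 and 15.2 CPM in the controls, at -0.89 ± 0.22 (edgeR, adjusted p = 0.19). ABCA1, the cholesterol exporter, had 5.09, 9 and 8.9 CPM at lupeol 50, against 26.8, 33.4 and 4.93 CPM in the controls, at -1.51 ± 0.99. Its control B lay below all 3 lupeol 50 libraries, so that the difference rests on controls 1 and A. NR1H3, named with its value known, encodes LXR-alpha and stood at -0.01 ± 0.17. NR1H2, named in the same way, stood at -0.06 ± 0.13 and is uncertain, with 22.1% of its exonic bases shared with NAPSA.

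Lipid storage genes were evenly divided: of 19 tested genes for lipid droplets and fatty acid oxidation 10 lay above and 9 below control, with a median of 0.00. PLIN2, which coats lipid droplets, had 184, 689 and 491 CPM at lupeol 50, against 126, 136 and 214 CPM in the controls, at 1.52 ± 0.55. CD36, a fatty acid and lipoprotein receptor, had 59.8, 97.5 and 85.3 CPM at lupeol 50, against 48.4, 50.4 and 61.7 CPM in the controls, at 0.60 ± 0.16. Both stood high in replicates 2 and 3 and overlapped the controls through replicate 1. CPT1A, which admits fatty acids to mitochondria, stood at -0.11 ± 0.14, and its groups overlapped.

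ER chaperones and the unfolded protein response lay higher. All 23 listed genes were tested, 22 lay above control and 7 were wholly higher, with a median of 0.42, beside 49.5% of all genes above control and 9.55% wholly higher. Averaged over the list, log2 CPM was 7.81, 8.40 and 8.20 at lupeol 50 and 7.54, 7.58 and 7.83 in the controls, so that replicate 1 stood just under control B. Without lupeol 50 replicate 1, 21 were wholly higher and the median was 0.56, and without control B these were 19 and 0.51. Of all genes, 21.3% and 22.4% were wholly higher in these settings. HSPA5, the chief ER chaperone BiP, had 1239, 2831 and 2241 CPM at lupeol 50, against 855, 958 and 1247 CPM in the controls, at 1.04 ± 0.32 (edgeR, adjusted p = 0.29). XBP1, which encodes the factor that IRE1 activates by splicing, had 170.4, 244 and 218 CPM at lupeol 50, against 110.0, 106 and 174 CPM in the controls, at 0.70 ± 0.25. In both genes replicate 1 lay just below control B, and replicates 2 and 3 above every control. Replicate 1 likewise met control B in CANX, calnexin, with 1883, 2386 and 2296 CPM at lupeol 50, against 1372, 1357 and 1886 CPM in the controls, chosen after its values were seen. Gene-level counts do not tell spliced from unspliced XBP1.

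**Figure D4:**
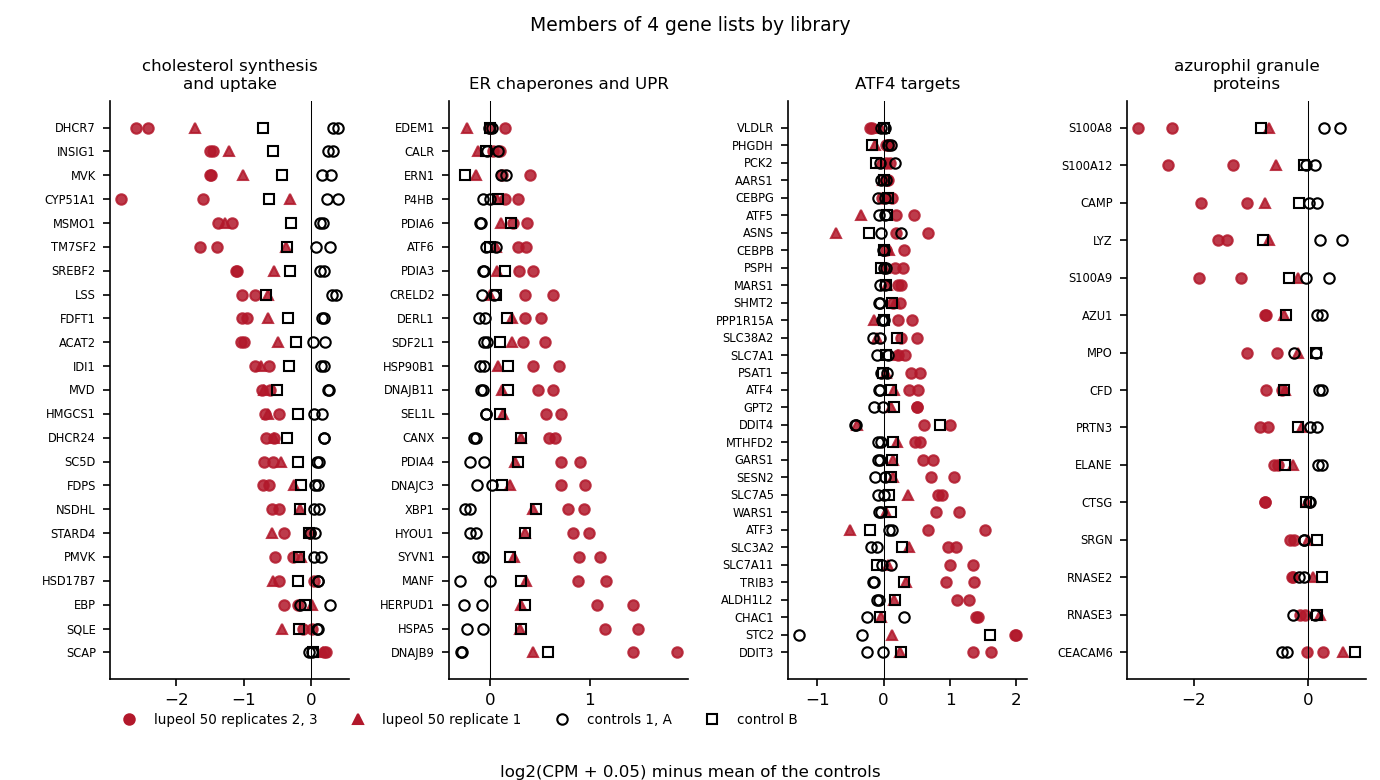
Log2(CPM + 0.05) in each library minus the mean of the 3 controls (x axis) for tested members of 4 gene lists (rows; 2 cholesterol genes are not drawn). Red symbols are lupeol 50 (triangle, replicate 1) and open symbols controls (square, control B); by fold change 1 cholesterol gene drawn, SCAP, lies above control and 22 of 23 ER genes do, and the triangles and squares lie close together in most ER and ATF4 rows.

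The promoters of HSPA5, HSP90B1 and XBP1 are shown as examples of those that carry the ER stress element through which ATF6 and XBP1 are known to act. Its ends are CCAAT and CCACG with 9 bases between them, searched on both strands. The sequences are from RefSeq, GRCh38.p14, around each start, with the element in capitals: chr9:125241294-125241593, minus strand, chr12:103930160-103930459, plus strand, and chr22:28800520-28800819, minus strand.
HSPA5: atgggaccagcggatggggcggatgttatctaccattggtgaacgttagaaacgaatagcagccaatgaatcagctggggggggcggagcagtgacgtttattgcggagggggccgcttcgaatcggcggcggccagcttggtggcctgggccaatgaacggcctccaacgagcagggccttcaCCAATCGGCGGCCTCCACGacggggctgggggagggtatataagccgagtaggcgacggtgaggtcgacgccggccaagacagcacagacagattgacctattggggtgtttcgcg
HSP90B1: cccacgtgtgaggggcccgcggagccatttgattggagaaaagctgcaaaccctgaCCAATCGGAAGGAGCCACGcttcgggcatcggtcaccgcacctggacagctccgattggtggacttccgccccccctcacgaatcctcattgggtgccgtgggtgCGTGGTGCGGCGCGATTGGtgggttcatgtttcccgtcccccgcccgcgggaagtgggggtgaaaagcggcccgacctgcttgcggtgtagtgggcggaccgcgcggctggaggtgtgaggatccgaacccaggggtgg
XBP1: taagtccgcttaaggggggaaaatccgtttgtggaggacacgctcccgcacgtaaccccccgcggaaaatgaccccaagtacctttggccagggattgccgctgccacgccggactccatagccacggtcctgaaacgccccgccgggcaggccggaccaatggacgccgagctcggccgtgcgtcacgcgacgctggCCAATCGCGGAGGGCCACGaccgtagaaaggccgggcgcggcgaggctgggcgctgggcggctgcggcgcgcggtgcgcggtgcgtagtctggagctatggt
The element was found in 6 of 21 ER list promoters in the table (28.6%), with 2 matches in HSP90B1, and in 14 of 11790 promoters of tested genes (0.119%). The other 3 of the list, whose promoters are not shown, were CANX, CALR and CRELD2, with log2 fold changes of 0.51, 0.00 and 0.35. No rule set beforehand chose which were shown. The 14 genes include these 6 of the ER list. Of the 14, 13 lay above control, CALR at 0.00 among them, with a median log2 fold change of 0.40. Only 1 was wholly higher, SERP1, a small protein of the ER translocon. Among all genes 49.5% lay above control and 9.55% were wholly higher. HSP90B1, the ER form of Hsp90, had 1100.0, 1693 and 1406 CPM at lupeol 50, against 971, 999 and 1183 CPM in the controls, at 0.41 ± 0.14. CALR, calreticulin, had 1505, 1755 and 1671 CPM at lupeol 50, against 1601, 1731 and 1593 CPM in the controls, at 0.00 ± 0.11, with overlapping groups. For ATF4 targets the letters TGATGNAAT, read on both strands, were in 0 of 26 promoters of the list and in 53 of 11790 (0.45%), which says nothing of ATF4 itself.

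Targets of ATF4 lay higher in the same libraries. Of 31 tested genes (32 listed) 29 lay above control and 11 were wholly higher, with a median of 0.36, beside the same 49.5% and 9.55% of all genes, and the median was 0.23 without lupeol 50 replicate 2. Without lupeol 50 replicate 1, 25 were wholly higher with a median of 0.49, and without control B there were 18, with 0.43. The wholly higher share of all genes was 21.3% and 22.4% in these settings. ATF4 itself had 333, 427 and 387 CPM at lupeol 50, against 287, 285 and 322 CPM in the controls, at 0.36 ± 0.17. TRIB3, a pseudokinase that feeds back on ATF4, had 109, 223 and 166 CPM at lupeol 50, against 77.4, 77.7 and 107 CPM in the controls, at 0.92 ± 0.38. Both were separated, by a narrow margin between replicate 1 and control B. ALDH1L2, a mitochondrial folate enzyme with the smallest p of the list, had 34.6, 76.3 and 67.1 CPM at lupeol 50, against 29.5, 29 and 35.2 CPM in the controls, at 0.93 ± 0.23 (edgeR, adjusted p = 0.2). ASNS, asparagine synthetase, had 0.412, 1.15 and 0.816 CPM at lupeol 50, against 0.684, 0.862 and 0.598 CPM in the controls, at 0.14 ± 0.49, with a sign that turned without replicate 2, at -0.23. The level of ASNS is uncertain, since 49.3% of its exonic bases are shared with another annotated gene. The cystine carrier SLC7A11 had 39, 94.3 and 74.1 CPM at lupeol 50, against 40.2, 36.6 and 34.8 CPM in the controls, at 0.89 ± 0.25, and its replicate 1 lay among the controls.

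Other stress lists lay higher by less. Of 20 heat shock genes 18 lay above control and 10 were wholly higher, with a median of 0.23. Without control B 18 were wholly higher with a median of 0.30, and without lupeol 50 replicate 1 there were 15, with 0.24. For this and the other lists here, 49.5% of all genes lay above control and 9.55% were wholly higher. The wholly higher share of all genes was 22.4% without control B and 21.3% without lupeol 50 replicate 1. BAG3, a co-chaperone of Hsp70, had 71.8, 104 and 95.5 CPM at lupeol 50, against 54.5, 57.1 and 63.7 CPM in the controls, at 0.63 ± 0.18, and its groups were apart. HSPA1A and HSPA1B, near-identical copies whose reads may be shared between them, stood at -0.03 ± 0.21 and 0.32 ± 0.17 and are uncertain. All 31 tested subunits of the constitutive proteasome lay above control and 10 were wholly higher, with a median of only 0.16. Without control B 26 were wholly higher with a median of 0.24, and without lupeol 50 replicate 1 there were 20, with 0.23. PSMC4, an ATPase of its base, had 104, 146 and 138 CPM at lupeol 50, against 86.2, 85.9 and 101 CPM in the controls, at 0.51 ± 0.16. MYC targets of ribosome biogenesis lay higher by a similar small amount, 25 of 30 above control and 16 wholly higher, with a median of 0.14, while MYC stood at 0.03 ± 0.14. SRM, spermidine synthase, had 218, 261 and 247 CPM at lupeol 50, against 161, 164 and 183 CPM in the controls, at 0.51 ± 0.15. Zinc response genes lay above control in 7 of 8 tested (10 listed) and 1 was wholly higher. Their median was 0.33, with 0.37 without control B and 0.41 without lupeol 50 replicate 1. The zinc exporter SLC30A1 had 143, 199.9 and 207 CPM at lupeol 50, against 109, 105 and 151 CPM in the controls, at 0.59 ± 0.16. Its groups overlapped, since replicate 1 lay below control B. NRF2 targets were even, with 11 of 24 above control and a median of -0.01, although HMOX1, haem oxygenase 1, had 26.8, 146 and 102 CPM at lupeol 50, against 28.9, 41.2 and 35.5 CPM in the controls, at 1.37 ± 0.65, high in replicates 2 and 3 and below the controls in replicate 1.

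Antigen presentation lay lower. Of 13 tested MHC class II genes (15 listed) 12 lay below control and 3 were wholly lower, with a median of -0.39, beside 50.5% and 9.63% of all genes. Without lupeol 50 replicate 1, 11 were wholly lower with a median of -0.57, and without control B there were 8, with -0.47. CIITA, their coactivator, had 2.03, 2.68 and 1.63 CPM at lupeol 50, against 4.45, 6.41 and 3.89 CPM in the controls, at -1.22 ± 0.32, and shares 11.7% of its exonic bases with DEXI, so its value is uncertain. HLA-DQB1 had 8.87, 7.44 and 8.56 CPM at lupeol 50, against 15.8, 12.9 and 13 CPM in the controls, at -0.74 ± 0.18. These 2 genes were separated, while CD74, the invariant chain, overlapped through replicate 1 and control B, with 187, 132 and 130.4 CPM at lupeol 50, against 231, 228 and 170.3 CPM in the controls, at -0.48 ± 0.15. Of 18 MHC class I and peptide loading genes 14 lay below control and 8 were wholly lower, with a median of -0.22, and of -0.14 without control A. Without control B 12 were wholly lower with a median of -0.31, and without lupeol 50 replicate 1 there were 11, with -0.26. B2M, beta-2 microglobulin, had 1281, 1367 and 1277 CPM at lupeol 50, against 1630.1, 1753 and 1485 CPM in the controls, at -0.31 ± 0.13. HLA-B had 611, 485 and 486 CPM at lupeol 50, against 748, 746 and 641 CPM in the controls, at -0.43 ± 0.12, both with no overlap. TAP1, the peptide transporter, overlapped, at 0.03 ± 0.17, with a sign that turned in several of the alternatives, and is uncertain, with 12.4% of its exonic bases shared with PSMB8-AS1. HLA genes are close copies of each other, and how reads with several alignments were counted is unknown here, so single HLA values are uncertain.

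Interferon response genes varied more between libraries than between groups. Of 30 tested genes 16 lay above and 14 below control, none was separated, and the median was 0.00. The list averaged 6.20 ± 0.76 log2 CPM at lupeol 50 and 6.30 ± 0.47 in the controls (SD, n = 3 each). By library it was 5.34, 6.77 and 6.48 at lupeol 50 and 6.34, 6.74 and 5.81 in the controls, with replicate 1 lowest and control B next. The direction of the median depends on which library is left out. It stood at 0.32 with lupeol 50 replicate 1 left out and 0.23 without control A, but at -0.28 without lupeol 50 replicate 2, -0.11 without replicate 3 and -0.18 without control B. ISG15, a ubiquitin-like modifier, had 75.1, 214 and 179 CPM at lupeol 50, against 149, 218 and 107 CPM in the controls, at -0.02 ± 0.52. MX1, an antiviral GTPase, had 64.6, 184 and 157 CPM at lupeol 50, against 137, 192 and 91.6 CPM in the controls, at -0.05 ± 0.76. Both signs turned positive without lupeol 50 replicate 1, to 0.32 for ISG15 and 0.28 for MX1, and without control A, to 0.29 and 0.24.

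Inflammatory genes lay higher with wide spread. Of 24 tested NF-kB targets and cytokines (26 listed) 18 lay above control and 5 were wholly higher, with a median of 0.46, beside 49.5% and 9.55% of all genes, and with lupeol 50 replicate 2 left out the median stood at 0.29. Without control B 15 were wholly higher with a median of 0.66, and without lupeol 50 replicate 1 there were 12, with 0.51. The wholly higher share of all genes was 22.4% and 21.3% in these settings. IL1B, interleukin-1 beta, had 60.8, 173 and 145 CPM at lupeol 50, against 16, 17.4 and 89.8 CPM in the controls, at 1.62 ± 0.96. Control B stood above replicate 1 and far above the other controls. PTGS2, cyclooxygenase 2, was separated, with 6.91, 8.29 and 7.38 CPM at lupeol 50, against 5.4, 4.97 and 5.42 CPM in the controls, at 0.52 ± 0.18. CXCL8, interleukin-8, was also wholly higher, with 162, 321 and 205 CPM at lupeol 50, against 99.2, 72.2 and 155 CPM in the controls, at 1.08 ± 0.41, chosen after its values were seen. NFKBIA, the inhibitor that NF-kB itself induces, had 236, 195 and 187 CPM at lupeol 50, against 227, 233 and 222 CPM in the controls, at -0.14 ± 0.16, and its groups overlapped. Immediate-early genes were mixed, 10 of 25 above control, and the AP-1 subunits FOS and FOSB lay lower. FOS had 565, 492 and 487 CPM at lupeol 50, against 756, 704 and 636 CPM in the controls, at -0.44 ± 0.13, and FOSB had 37.6, 26.5 and 25.7 CPM at lupeol 50, against 84, 72.2 and 45 CPM in the controls, at -1.16 ± 0.23 (edgeR, adjusted p = 0.19). Both were separated.

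Myeloid granule genes lay lower, most of them with overlapping groups, while PU.1 and HOXA9 stood near their controls. Of 15 tested genes of the azurophil granule list (19 listed), which also holds secreted S100 proteins, 14 lay below control and 3 were wholly lower, with a median of -0.56, beside 50.5% and 9.63% of all genes. Of these 3, CAMP averaged 0.275 CPM at lupeol 50 and 0.68 CPM in the controls, and S100A12 0.236 and 0.632 CPM, so only AZU1 lay above 1 CPM. Without lupeol 50 replicate 1, 13 were wholly lower with a median of -0.77, and without control B there were 10, with -0.66. AZU1, azurocidin, had 1189, 949.6 and 939 CPM at lupeol 50, against 1771, 1872 and 1212 CPM in the controls, at -0.66 ± 0.15. ELANE, neutrophil elastase, had 1336, 1115 and 1059 CPM at lupeol 50, against 1899, 1816 and 1209.9 CPM in the controls, at -0.49 ± 0.16. AZU1 was separated, and in ELANE replicate 1 lay above control B. LYZ, lysozyme, had 86.4, 46.9 and 52 CPM at lupeol 50, against 161, 211 and 80.7 CPM in the controls, at -1.29 ± 0.43, and S100A8, a calcium-binding alarmin, had 10.3, 2.08 and 3.15 CPM at lupeol 50, against 20.1, 24.5 and 9.34 CPM in the controls, at -1.79 ± 0.65. Both overlapped, with replicate 1 above control B, and both were named with their values known. In these genes replicate 1 and control B lay side by side between the other libraries. SPI1, which encodes the myeloid factor PU.1, had 444, 428 and 413 CPM at lupeol 50, against 454, 441 and 437 CPM in the controls, at -0.05 ± 0.12. RUNX1 stood at 0.07 ± 0.12 and CEBPA, a granulocyte and monocyte factor, at -0.41 ± 0.15. HOXA9, a homeobox factor of leukaemia, had 59.8, 65.9 and 56.9 CPM at lupeol 50, against 59.3, 57.2 and 56.2 CPM in the controls, at 0.08 ± 0.12, and is uncertain, with 13.9% of its exonic bases shared with HOXA10-AS. The list of HOXA and stemness genes had 7 of 13 tested (16 listed) above control and a median of 0.03. Among monocyte receptors 11 of 20 tested (23 listed) lay above control, and CSF1R, the receptor of the growth factor M-CSF, had 71.1, 123 and 114 CPM at lupeol 50, against 69.4, 84.9 and 86 CPM in the controls, at 0.36 ± 0.19.

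The medians of the proliferation and survival lists lay between -0.12 and 0.06. Among all genes 49.5% lay above and 50.5% below control, 9.55% were wholly higher and 9.63% wholly lower. Of 35 DNA replication genes 30 lay below control, but none was wholly lower and 1 was wholly higher, with a median of -0.12, which was -0.23 without lupeol 50 replicate 1, with 25 wholly lower, and -0.06 without replicate 2. MCM2, part of the replicative helicase, had 272, 181 and 211 CPM at lupeol 50, against 254, 252 and 235 CPM in the controls, at -0.16 ± 0.14, with replicate 1 the highest of all libraries. It is uncertain, since 23.6% of its exonic bases are shared with another annotated gene. Of 32 mitotic genes 25 lay below control, 6 were wholly lower and 1 wholly higher. Their median was -0.05, with -0.03 without control B and -0.08 without lupeol 50 replicate 1. CCNB1, cyclin B1, stood at 0.11 ± 0.11 and AURKB, an aurora kinase, at -0.32 ± 0.16. Among G1 genes 7 of 15 tested (18 listed) lay above control, with CCND1, cyclin D1, wholly higher at 12.5, 22.6 and 19.4 CPM at lupeol 50, against 7.72, 7.45 and 11.2 CPM in the controls, a log2 fold change of 1.05 ± 0.26 (edgeR, adjusted p = 0.2). It is uncertain, since 10.4% of its exonic bases are shared with LTO1. CDKN1A, the inhibitor p21, stood at 0.58 ± 0.31 and overlapped through control B, with 256 CPM in lupeol 50 replicate 1 against 357 CPM in control B. Of 19 tested p53 targets (20 listed) 10 lay above control, 2 were wholly higher and 5 wholly lower, with a median of 0.00. BBC3, the death promoter PUMA, was wholly lower, with 6.32, 5.65 and 5.93 CPM at lupeol 50, against 9.92, 8.52 and 8.75 CPM in the controls, at -0.60 ± 0.19. Of 14 tested BCL2 family genes (15 listed) 9 lay above control, 1 was wholly higher and 4 wholly lower, with a median of 0.06. BIK, another death promoter of that family, was wholly lower, with 21.5, 11.2 and 13.6 CPM at lupeol 50, against 29.4, 28.7 and 24.6 CPM in the controls, at -0.83 ± 0.20. BCL2, which opposes these death promoters, had 102, 96.9 and 105 CPM at lupeol 50, against 76.6, 73.4 and 99 CPM in the controls, at 0.29 ± 0.13. Its groups overlapped, since replicate 2 lay below control B. BOK, chosen after its values were seen, was the family's 1 wholly higher gene, at 0.61 ± 0.31, and MCL1 stood at 0.06 ± 0.12.

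The remaining lists lay near the middle of all genes. Cytosolic ribosomal proteins had 29 of 48 above control and a median of 0.04, and nuclear-encoded respiratory chain subunits 16 of 37 and a median of -0.04. COX8A, a subunit of cytochrome oxidase, was wholly lower within the respiratory chain list, at -0.42 ± 0.14, and RPL22 within the ribosomal list, at -0.28 ± 0.12. Glycolysis and hypoxia genes had 10 of 28 tested (30 listed) above control and a median of -0.10, which was 0.15 without control B and -0.19 without control 1. The mean log2 CPM of that list was 6.45 in control B, above the other libraries of both groups, with 5.82 and 5.86 in controls 1 and A. LDHA, lactate dehydrogenase A, had 773, 703 and 727 CPM at lupeol 50, against 667, 654 and 1041 CPM in the controls, at -0.10 ± 0.15, and its sign turned without control B, to 0.16. Lysosome and autophagy genes had 13 of 28 above control and a median of -0.02, iron genes 5 of 11 tested (12 listed) and -0.01, peroxiredoxins and related enzymes 8 of 16 and 0.00, NADPH oxidase subunits 3 of 6 and 0.00, and myeloid transcription factors 7 of 17 and -0.05. TFRC, the transferrin receptor, was wholly higher, with 281, 302 and 322 CPM at lupeol 50, against 262, 248 and 246 CPM in the controls, at 0.26 ± 0.10.

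**Figure D5:**
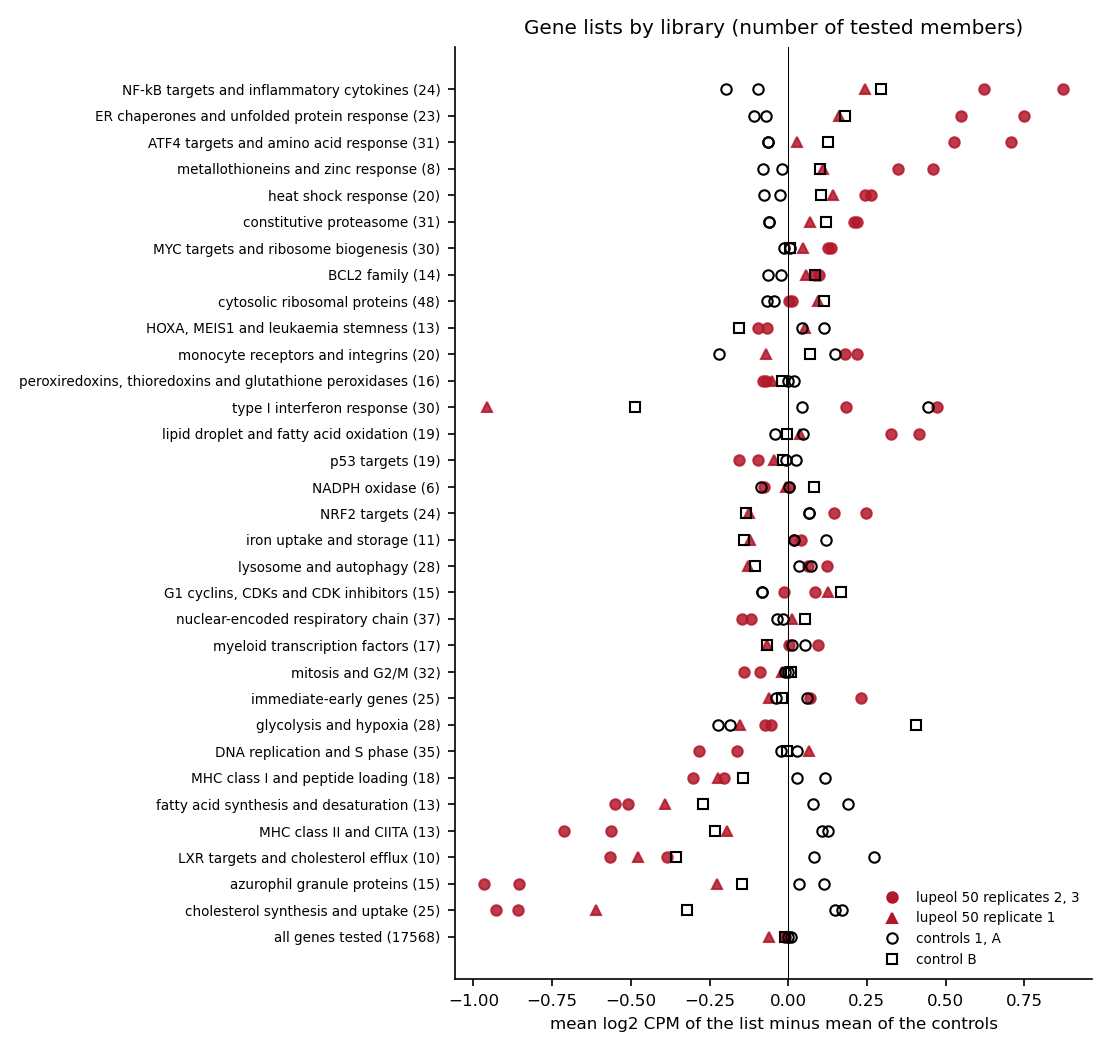
Mean log2 CPM of each gene list in each library minus the mean of the 3 controls (x axis), with the number of tested members in parentheses (rows). Red symbols are lupeol 50 (triangle, replicate 1) and open symbols controls (square, control B); the cholesterol list lies lowest with no overlap of the groups, the interferon list spreads most widely, and all genes tested lie within a narrow band.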

How the data were processed

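Raw counts of reads per gene were deposited by the authors for 9 libraries, with totals of 26134744 to 38430299. Bowtie 0.12.2 and mm8, a mouse build, are named per the submitters' processing notes. The deposited table holds human genes: 35966 of its versioned Ensembl IDs are in GENCODE 29, all 35966 with the same chromosome, start and end. No source used here gives how strand and multiply aligned reads were handled: antisense, overlapping and near-identical genes are therefore uncertain. Of the control columns 2 share a heading and are named A and B. ANK2, with empty values, was left out, and mitochondrially encoded genes have no count.

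Counts were tested with edgeR 4.0.16 in R 4.3.3 (filterByExpr, TMM, robust quasi-likelihood F test) in 1 fit of all 9 libraries, with Benjamini-Hochberg adjustment over 17568 genes and a threshold of 0.05. The common coefficient of biological variation was 0.178. Residual degrees of freedom were 6 and prior ones 12 at the median. The SE was taken from F, as the fold change (log2, absolute) over its square root. DESeq2 1.42.0 and limma 3.58.1 (voom) were alternatives, with other filters, scalings and libraries left out. Of 33754 genes with a count, 33683 took their symbol from a names table and 65 from GENCODE, and 6 have none. Promoters came from RefSeq (GRCh38.p14), for 11790 tested genes.

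Named genes have a mean of at least 5 CPM and no overlap: the 10 of smallest p and the 5 of largest fold change in each direction. The first 3 genes of each list and its member of smallest p are added. Others were chosen with values known, and not all of them are marked where they are named. Some genes under this rule are not reported here. The members and the 32 lists (719 distinct genes, 690 tested) were chosen with earlier results of these data known. No list was given a test of its own. Spreads cover counting and library differences in these samples, and counted reads may repeat a molecule.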

Additional observations from a re-analysis of the deposited data

How the results depend on the processing

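No gene passed edgeR's test, so every value here is a description of 6 libraries. Depth of 26134744 to 29418948 counts per library leaves genes of few CPM imprecise, and strand and read placement could not be checked, while the report names overlaps of 10% or more of a gene's exonic bases; for FTH1, named only here, the share with BEST1 is 63.2%.

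The count of called genes was 0 and became 229 with DESeq2, 520 without the expression filter and 1 from the 6 compared libraries alone. With each library left out in turn it ran from 0 to 427, with 427 without lupeol 50 replicate 1, 141 without control B and 2 without lupeol 80 replicate 1. It stayed at 0 with DESeq2's size factors, no scaling factors, limma-voom, a mean of at least 5 CPM, no robust estimation, controls A and B summed, and the GC and length trend of each library removed, which was chosen after seeing the data. Of the 520, 514 had also been tested with the filter, and of DESeq2's 229 genes 183 (79.9%) had no overlap. The count of genes with no overlap was 3369 and ran from 3439 to 7789 with each library left out, the lowest without lupeol 80 replicate 1. With a library of the 6 compared left out it ran from 4503 to 7789, and it was 6667 with controls A and B summed. Fewer libraries separate more easily by construction.

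Of 608 list medians under 19 alternatives, 590 moved by less than the spread between replicates and 18 by more, and 17 of 32 lists kept 1 sign in every setting. The NF-kB median, 0.46, was 0.27 above 5 CPM. Of 141 named genes, 21 changed sign in some setting. With each library left out in turn, the log2 fold change of TAP1 ran from -0.05 to 0.12, RPL3 from -0.02 to 0.12, COX4I1 from -0.04 to 0.05, HK2 from -0.01 to 0.46, FTL from -0.07 to 0.05, NCF1 from -0.13 to 0.27, CPT1A from -0.28 to 0.03, MX1 from -0.35 to 0.28, ISG15 from -0.32 to 0.32. That of CDKN1B ran from -0.01 to 0.10, HSPA1A from -0.09 to 0.06, MT2A from -0.21 to 0.09, FTH1 from -0.10 to 0.12, CDK1 from -0.19 to 0.01, MYC from -0.02 to 0.08, ITGAM from -0.25 to 0.10, FBL from -0.06 to 0.07, LDHA from -0.21 to 0.16 and ASNS from -0.23 to 0.46. With no scaling factors and with a mean of at least 5 CPM, COX4I1 and NCF1 stood at -0.01. With controls A and B summed, MT2A, ITGAM and FBL stood at 0.01, 0.02 and 0.03. With GC and length trends removed, MX1 stood at 0.01, ISG15 at 0.21, MDM2 at 0.00, HSPA1A at 0.06, MT2A at 0.09, SPI1 at 0.08, FBL at 0.05, COX4I1 at -0.01, FTH1 at 0.01, FTL at 0.14. The causes of these sign changes were not tested.

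No paired analysis was possible because the replicate numbers follow accession order only and 2 control columns share a heading. The planned setting without the control and lupeol 50 library nearest to each other was not run, since leaving out libraries by their measured closeness widens the difference by construction. The effect of leaving out each of them alone is given above.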

Other observations

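Genes of protein export, seen first among the genes of smallest p and then gathered into lists after their values were seen, stood higher at lupeol 50, and these counts are a description with no test. All 21 COPI and COPII coat genes lay above control and 9 were wholly higher, with a median log2 fold change of 0.39. Among all genes 49.5% lay above control and 9.55% were wholly higher. The list mean was 7.06, 7.42 and 7.35 log2 CPM at lupeol 50 and 6.86, 6.83 and 7.03 in the controls, so replicate 1 stood just above control B. COPB1, the beta coat subunit of COPI, had 232, 331 and 299 CPM at lupeol 50, against 184, 182 and 244 CPM in the controls, at 0.50 ± 0.14. COPB2, another subunit of that coat, had 163, 207 and 203 CPM at lupeol 50, against 139, 148 and 161 CPM in the controls, at 0.36 ± 0.12. COPB1 overlapped, since replicate 1 lay below control B, and COPB2 was separated. COPB2 is uncertain, since 34.1% of its exonic bases are shared with MRPS22.

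The translocon, signal peptidase and N-glycosylation list lay the same way, beside the same 49.5% and 9.55% of all genes. It had 32 of 36 genes above control, 14 wholly higher and 1 wholly lower, and a median of 0.38. Its genes averaged 6.93, 7.23 and 7.16 log2 CPM at lupeol 50 and 6.65, 6.65 and 6.96 in the controls, and the groups overlapped, with replicate 1 just below control B. SEC61A1, the channel through which new proteins enter the ER, had 557, 729.6 and 712 CPM at lupeol 50, against 442, 440.4 and 529 CPM in the controls, at 0.50 ± 0.13. STT3A, a catalytic subunit of oligosaccharyltransferase, had 421, 498 and 481 CPM at lupeol 50, against 315, 327 and 416 CPM in the controls, at 0.41 ± 0.12. Both were separated, and replicate 1 and control B lay nearest to each other. SEC61B, another subunit of that channel, overlapped through the same libraries, with 79.6, 92.3 and 88.9 CPM at lupeol 50, against 63.7, 61.9 and 83.6 CPM in the controls, at 0.32 ± 0.16. All 6 genes of the hexosamine pathway, which supplies the sugar donor for glycosylation, lay above control, with a median of 0.48. Wholly higher were 2 of the 6, beside the same 49.5% and 9.55% of all genes. That list averaged 6.09, 6.53 and 6.43 log2 CPM at lupeol 50 and 5.93, 5.91 and 6.10 in the controls, again with replicate 1 just below control B. GFPT1, its rate-limiting enzyme, had 105, 175 and 149.9 CPM at lupeol 50, against 84.3, 86.3 and 102 CPM in the controls, at 0.65 ± 0.15, and replicate 1 lay just above control B.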
